A study of Homo sapiens with 12 samples.

Results

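The clustered protocadherins are cell-surface cadherins encoded side by side on the long arm of human chromosome 5, and their RNA was examined in neural cells that lacked the catalytic domains of 2 histone demethylases. The members were the protein-coding genes whose symbol is PCDHA, PCDHB, PCDHGA, PCDHGB or PCDHGC followed by a number, together with the C-type genes PCDHAC1 and PCDHAC2. These were 53 genes of the 58302 gene rows in the count files, and every member had a row. The alpha cluster held 15 genes, the beta cluster 16 and the gamma cluster 22.

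RNA was sequenced in 12 samples of H1, an established human embryonic stem cell (ESC) line, in 6 groups of 2 samples. WT-NPC and dKO-NPC are neural progenitor cells (NPCs) made from WT cells and from cells with JMJD3 (KDM6B) and UTX (KDM6A) both disrupted. The labels give these groups no passage, and passage 2 was taken from the study's methods. WT-NPC-P4 and dKO-NPC-P4 are the same kinds of progenitors at passage 4. WT-D28 and dKO-D28 are progenitors left to differentiate for 28 days without FGF2 and EGF and with GDNF, BDNF and cAMP. The dKO cells carried deletions of the catalytic domain of both enzymes, made with CRISPR guides and donor DNA in successive rounds with puromycin selection of clones. The genotype therefore cannot be told apart from the selected clone. No source used here says that the 2 samples of a group came from separate cultures. The p-values therefore rest on a spread that may be technical, taken within groups and pooled for each gene over all 12 samples.

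Each alpha and gamma protocadherin RNA joins its own large first exon, the variable exon, to 3 constant exons shared by the whole cluster, whereas each beta gene is a single exon of its own. A neuron is known to express a small subset of the variable exons from either chromosome, so that each neuron carries its own combination of isoforms, and these proteins bind only matching copies on neighbouring cells in the recognition of self. The C-type genes PCDHAC1, PCDHAC2, PCDHGC3, PCDHGC4 and PCDHGC5 lie at the 3′ ends of the alpha and gamma clusters and are expressed more uniformly among neurons than the alternate isoforms. CTCF and cohesin bind conserved promoter elements of many, not all, clustered protocadherin genes and loop them to distant enhancers. DNA methylation of the promoters silences them.

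Most promoters of the clusters carry a short element around the letters CGCT, which CTCF is known to bind in this locus. RefSeq promoters (GRCh38.p14, 250 bases before to 50 after the start) were matched for 47 of the 53 members. No entry was matched for PCDHA3, PCDHA13, PCDHB6, PCDHB11, PCDHGA12 and PCDHGC5. CGCT stood on the coding strand at position -110 to -10 from the start in 44 of these 47 members, in 12 of 13 alpha, 13 of 14 beta and 19 of 20 gamma promoters. Of all 35116 RefSeq promoters, 28.5% held it in that window. It was not in that window in PCDHA9, PCDHB8 and PCDHGB2. A match of CGCT alone does not show that a promoter, such as that of a C-type gene, holds the element, and CTCF binding was not measured in these samples. Over the full 300 bases and both strands, CGCT was in 12 of 13 alpha, 14 of 14 beta and 20 of 20 gamma promoters. The share of all promoters was then 70.0%. The letters around it differed by cluster. These forms were searched on both strands of the full 300 bases, not only in the window. The alpha form GATGTCGCT was in 9 of 13 alpha promoters, in 0 beta and 0 gamma promoters and in 0.105% of all promoters. The beta form GGTGGCGCT was in 13 of 14 beta promoters, in 0 of the others and in 0.501% of all promoters. A further form, CGCTGT and then CCA after 3 bases of any kind, was in 12 of 20 gamma, 6 of 13 alpha and 0 of 14 beta promoters and in 0.310% of all promoters. All 3 forms contain CGCT and so overlap, and they were chosen after the promoters had been read.

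Windows of 30 bases are shown for members described below, and for PCDHGB5 as a relative of PCDHGB4, so that their letters can be compared. Each is on the plus strand of chromosome 5, 5′ to 3′, with CGCT in capitals.
PCDHA2: agccacatgatgtCGCTgtccaccatagag
PCDHA4: agccacatgatgtCGCTctttaccacaaaa
PCDHA6: agccgcatgatgtCGCTgtctaccatgaag
PCDHAC2: agcagtccgggttCGCTgtccgccacttcg
PCDHB2: agacgcggggtggCGCTgcagccttagaag
PCDHB5: ggacgcctggtggCGCTgcaggctaagagt
PCDHB13: ggacgcgtggtggCGCTgcaggataagaag
PCDHB15: caacgcatggtggCGCTgcaggctaaggct
PCDHB16: gaacgcgtggtggCGCTgcaggttaagatg
PCDHGB4: tgactctgggcgcCGCTgttggccaaagtg
PCDHGB5: tgactctgggcgcCGCTgttggccaaagtg
PCDHGB6: agcctctgggcgcCGCTgtcggccagtgca
PCDHGB7: agtgcagagcaagCGCTgacgccggggatc
PCDHGA10: ggactctgagcgcCGCTgttcacctactag
PCDHGC4: tgagcccgggagcCGCTgtctgccaatcgg
The first 3 alpha windows lie at chr5:140794784-140794813, chr5:140806982-140807011 and chr5:140827900-140827929. The PCDHAC2 window lies at chr5:140966368-140966397. The promoters of PCDHAC2, PCDHB2, PCDHGB4, PCDHGB5 and PCDHGB6 hold further copies of CGCT outside the windows shown. The beta windows lie at chr5:141094547-141094576, chr5:141135182-141135211, chr5:141213868-141213897, chr5:141245317-141245346 and chr5:141182313-141182342. The gamma windows lie at chr5:141387620-141387649, chr5:141397866-141397895, chr5:141407927-141407956, chr5:141417610-141417639, chr5:141412934-141412963 and chr5:141484955-141484984. The windows of the gamma B genes PCDHGB4 and PCDHGB5 were identical over the 30 bases. PCDHGB4 had a mean of 277 counts over the 12 samples against 8.83 for PCDHGB5, and reads could be split between such close relatives. A link between these letters and the RNA was not tested. Of the gamma windows shown, those of PCDHGB7 and PCDHGA10 lack the further form. The 30 bases shown for PCDHGB7 also stand at chr5:141407951-141407980 in the promoter of PCDHGB6.

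The gene structure limits what a count can show. In GENCODE v44 on hg38, the alpha genes lie at chr5:140786136-141012347, the beta genes at chr5:141051374-141249365 and the gamma genes at chr5:141330514-141512977, all on the plus strand. The 3 constant exons of the alpha cluster have 59, 89 and 2721 bases and belong to 15 of 15 alpha genes, and those of the gamma cluster have 59, 89 and 2029 bases and belong to 22 of 22 gamma genes. A read within a constant exon fits every gene of its cluster, and htseq-count leaves such a read uncounted in its default modes, although no mode is given in the sources used here. Alpha and gamma counts are therefore taken to be reads of the variable exons, while beta counts can come from the whole gene. The kit does not mark strand, so a member cannot be told apart from an antisense gene over the same bases. This applies to 19 members (9 alpha, 9 beta and 1 gamma), 10 of them among those tested below, including PCDHA6, PCDHA12, PCDHAC2, PCDHB2, PCDHB5 and PCDHB16. PCDHB2 overlaps PCDHB1-AS1 (1998 counts over the 12 samples), and the variable exon of PCDHA1 lies under an antisense gene (208 counts). The beta genes and the gamma genes of a subfamily are close relatives, and reads could be split between them.

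Total counts ran from 756942 in WT-NPC sample 1 to 10601172 in WT-D28 sample 2, and 3 counts correspond to 3.85 and 0.298 CPM (counts scaled to a library of 1000000 after TMM normalization) in these samples. These floors cover counting error only, because reads that lack molecular identifiers can be copies of the same molecule. The 4 passage 2 libraries were the shallowest, with at most 1438807 counts. Replicates differed by 1.57 to 2.72 times counting noise (chi-square per degree of freedom) in 5 groups and by 11.3 times in dKO-D28, whose 2 libraries stood apart. The fit takes 1 spread per gene for all groups, so standard errors can be too small for dKO-D28 and too large for other groups. The targeted genes were counted over their whole length and were still detected in dKO cells. KDM6A had 60.3 and 53.5 CPM in WT-NPC and 39.2 and 38.3 in dKO-NPC, 49.8 and 53.3 in WT-NPC-P4 and 31.4 and 27.3 in dKO-NPC-P4, and 43.7 and 48.4 in WT-D28 and 58.4 and 31.9 in dKO-D28. KDM6B had 154 and 181 CPM in WT-NPC against 152 and 157 in dKO-NPC, 115 and 126 in WT-NPC-P4 against 185 and 181 in dKO-NPC-P4, and 202 and 186 in WT-D28 against 144 and 150 in dKO-D28. None of these 6 comparisons reached a 2-fold change, and KDM6A in dKO-D28 lay above WT-D28 in sample 1 and below it in sample 2.

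Many members were read only a few times. An average of 20 or more counts across all libraries, the lower limit in the study's methods, was reached by 25 of the 53: 9 alpha, 10 beta and 6 gamma genes. Of the gamma A genes 1 of 12 reached it (PCDHGA10), of the gamma B genes 3 of 7 (PCDHGB4, PCDHGB6 and PCDHGB7) and of the C-type genes 4 of 5. The other 28 had a median of 6.83 counts, from 0.417 in PCDHGA7 to 18.9 in PCDHA1, and the 25 tested began at 22.6 in PCDHB4. Members with a count in both samples numbered 37 in WT-NPC, 38 in dKO-NPC, 50 in WT-NPC-P4, 47 in dKO-NPC-P4 and 52 in each D28 group. These numbers follow the depth of the libraries as well as the RNA. The minimum is an average over all libraries, so a member can reach it through a deep group in which it is high. PCDHAC2, PCDHAC1, PCDHB4 and PCDHB9 reached it only with WT-D28 included. PCDHAC2 had 207 and 233 counts in WT-D28 and 3 to 38 in every other library.

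**Figure D1:**
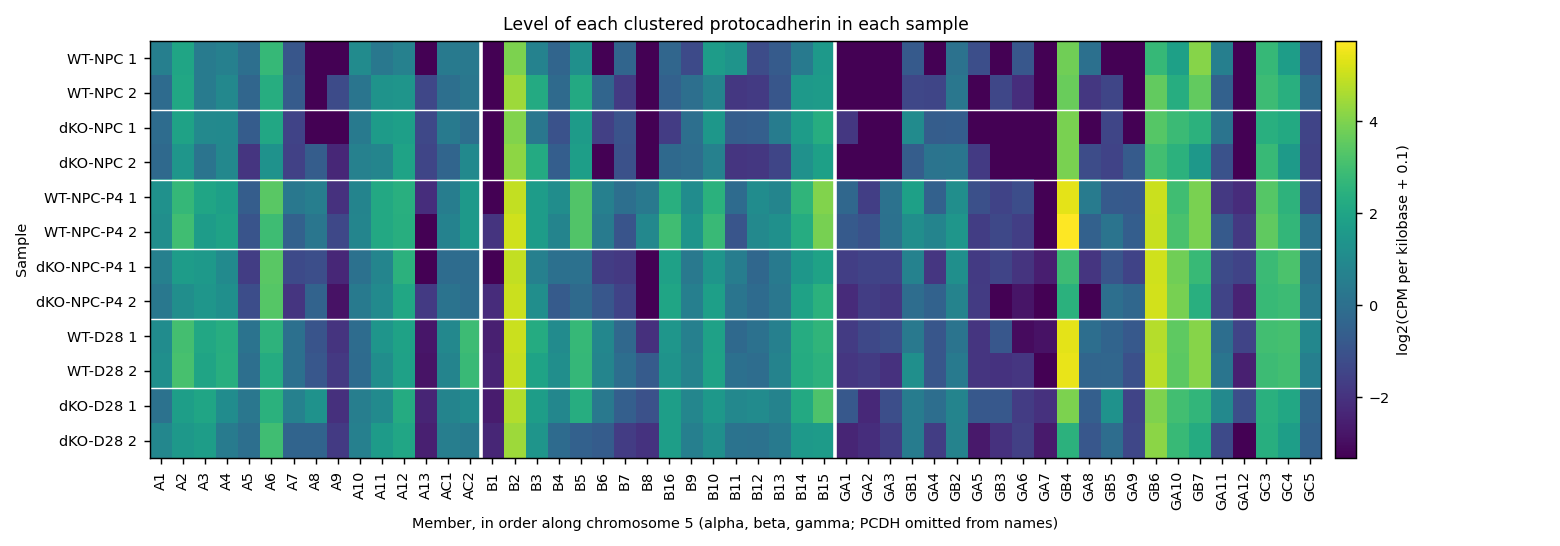
Level of each of the 53 members (columns, in order along chromosome 5, white lines between clusters) in each of the 12 samples (rows), as log2(CPM per kilobase of own exon + 0.1), from dark (low) to yellow (high). PCDHB2, PCDHGB4 and PCDHGB6 form bright columns, PCDHGB4 and PCDHB5 darken in the dKO-NPC-P4 rows, and most gamma A genes stay dark in every row.

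Per kilobase of own exon, a few members led each cluster. PCDHB2 was the highest beta gene in all 6 groups, from 17.5 CPM per kilobase in dKO-NPC to 32.1 in WT-NPC-P4, and gave 38.0% to 59.7% of the beta counts. PCDHGB4 was the highest gamma gene in dKO-NPC, WT-NPC-P4 and WT-D28, with 15.0 ± 0.0139, 47.9 ± 8.32 and 42.8 ± 1.53 CPM per kilobase (SD, n = 2). PCDHGB6 led in dKO-NPC-P4 with 34.5 ± 0.367 and in dKO-D28 with 16.8 ± 1.37, and PCDHGB7 in WT-NPC with 14.4 ± 3.68, a value that overlapped PCDHGB4 at 13.2 ± 0.533. In the alpha cluster PCDHA6 led in 4 groups, with 10.5 ± 0.475 CPM per kilobase in dKO-NPC-P4, and PCDHA12 led in dKO-NPC at 3.60 ± 0.240, beside PCDHA6 at 3.32 ± 1.38 and PCDHA2 at 3.15 ± 0.712. In WT-D28 PCDHA2 led at 8.27 ± 0.283, above the C-type gene PCDHAC2 at 7.24 ± 0.294. This order depends on length, as PCDHA4 has 10557 bases of own exon and PCDHA6 has 3267. By counts alone PCDHA4 led in dKO-NPC, WT-NPC-P4 and WT-D28, with 21.6%, 21.1% and 29.5% of the alpha counts. PCDHA6 led by counts in the other groups. The leading 3 members held between 46.4% and 73.1% of a cluster's summed level per kilobase. The alpha cluster had the flattest distribution, 46.4% to 60.4%, and the beta cluster, with PCDHB2 at its head, the steepest, 62.4% to 73.1%, overlapping the gamma cluster at 59.4% to 71.7%.

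Cell type markers differed between the groups compared here. The samples are bulk cultures, so fewer cells of a type and less RNA per cell cannot be told apart. Neuron markers (10 genes, from MAP2 to GAP43) summed to 1520 and 1310 CPM in WT-NPC and 1174 and 1084 in dKO-NPC, 4999 and 5632 in WT-NPC-P4 against 903 and 921 in dKO-NPC-P4, and 4470 and 4479 in WT-D28 against 1228 and 665 in dKO-D28. Of the 9 tested, 9 fell in dKO cells at passage 4 and 9 at day 28, and none of the 10 was at 0 in a group. In WT cells 8 of the 9 rose from passage 2 to passage 4 and 8 from passage 2 to day 28. Astrocyte markers (8 genes) summed to 2180 and 2387 CPM in WT-NPC-P4 against 648 and 696 in dKO-NPC-P4, and to 1202 and 1223 in WT-D28 against 291 and 772 in dKO-D28. Of the 7 tested, 1 rose and 6 fell in dKO cells at both later stages. The riser was GJA1, at 92.4 and 86.6 CPM in WT-NPC-P4 against 594 and 633 in dKO-NPC-P4 and at 118 and 110 in WT-D28 against 246 and 738 in dKO-D28, and it made up most of the sum in these dKO samples. In WT-NPC and dKO-NPC the astrocyte markers summed to 279 to 418 CPM, with S100B and ALDH1L1 at 0. As a sum, mesenchymal and neural crest markers (10 genes) were higher in dKO cells at every stage. They had 151 and 381 CPM in WT-NPC against 860 and 1042 in dKO-NPC. At passage 4 the values were 214 and 228 in WT-NPC-P4 against 1695 and 1710 in dKO-NPC-P4. At day 28 they were 116 and 123 in WT-D28 against 401 and 289 in dKO-D28. COL1A1 and COL1A2 made up most of the dKO sums. Of the 6 tested, 5 rose and 0 fell in dKO cells at passage 2, 4 and 0 at passage 4, and 4 and 1 at day 28. COL3A1 fell at day 28, with 51.5 and 54.9 CPM in WT-D28 against 18.4 and 7.22 in dKO-D28. DCN, not tested, was also lower in dKO-NPC-P4, and SOX10 and FOXD3 had at most 0.947 CPM. Cell cycle markers (6 genes) fell in WT-D28, to 329 and 343 CPM, against 1216 and 1475 in dKO-D28. The part of these markers in the protocadherin values was not tested. Progenitor markers summed to 4065 to 8135 CPM over 10 genes in all 6 groups, with HES5 at 0 in dKO-NPC and dKO-NPC-P4. VIM and NES made up most of these sums, and single genes differed. PAX6 had 11.7 and 11.5 CPM in WT-D28 against 187 and 351 in dKO-D28, and PROM1 had 2.84 and 2.98 against 74.2 and 107. Of the 9 tested, 2 rose and 1 fell in dKO cells at day 28. Pluripotency markers summed to 95.3 to 132 CPM at passage 2 and to 0.596 to 1.65 CPM in WT-NPC-P4 and WT-D28, against 41.5 to 105 CPM in the dKO groups at those stages, and POU5F1 and NANOG were at 0 in all 6 groups. As a sum, endothelial markers (6 genes) were also higher in dKO cells at every stage. They had 25.7 and 37.4 CPM in WT-NPC against 59.8 and 66.1 in dKO-NPC. The values were 5.28 and 5.33 in WT-NPC-P4 against 87.2 and 93.2 in dKO-NPC-P4, and 4.74 and 3.97 in WT-D28 against 21.7 and 17.7 in dKO-D28. KDR made up most of the dKO sums, and PECAM1 and CDH5 had group means of at most 2.83 and 0.642 CPM. The 1 gene tested rose in dKO cells at every stage. Serotonergic markers summed to at most 20.5 CPM in any sample.

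The clusters as wholes were at similar levels in both genotypes at passage 2 and lay apart later. The summed alpha level was 98.8 and 93.8 CPM in WT-NPC and 96.8 and 83.5 in dKO-NPC. It reached 180 and 171 CPM in WT-NPC-P4 against 119 and 117 in dKO-NPC-P4, and 183 and 176 in WT-D28 against 129 and 118 in dKO-D28. The WT samples lay above the dKO samples at both later stages without overlap. The summed beta level was 125 and 162 CPM in WT-NPC, 140 and 142 in dKO-NPC, 336 and 355 in WT-NPC-P4, 201 and 229 in dKO-NPC-P4, 273 and 261 in WT-D28 and 250 and 167 in dKO-D28. The beta cluster was thus highest in WT-NPC-P4, and dKO-D28 sample 1 came close to WT-D28. The summed gamma level was 176 and 191 CPM in WT-NPC, 175 and 150 in dKO-NPC, 414 and 453 in WT-NPC-P4, 327 and 316 in dKO-NPC-P4, 401 and 407 in WT-D28 and 230 and 185 in dKO-D28. The dKO to WT ratio at passage 4 was 0.674 for alpha, 0.622 for beta and 0.742 for gamma, and at day 28 it was 0.688, 0.781 and 0.514. The lowest ratio was thus in the beta cluster at passage 4 and in the gamma cluster at day 28. These sums are descriptions without a test, and they weigh the clusters by their most abundant members.

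Passage 2 NPCs differed between the genotypes in a single tested member. PCDHGB7, an alternate gamma B isoform, had 47.5 and 33.0 CPM in WT-NPC and 15.5 and 7.66 in dKO-NPC. The 2 groups did not overlap, and the log2 fold change was -1.76 ± 0.32 (standard error, SE, with an adjusted p of 0.00739 by edgeR's quasi-likelihood test). A call here and below needs a p under 0.05 before adjustment together with a change of more than 2-fold, and adjusted p-values are over all 13454 genes tested. By this rule 0 of 25 members rose and 1 fell, beside 2.59% of all genes tested that rose and 1.83% that fell. PCDHGB7 also passed with its adjusted p, as did 1.48% of all genes tested. Without dKO-NPC sample 1 or sample 2 the number was 2. The median log2 fold change of the 25 was -0.08, against 0.00 over all genes. Among the abundant members, PCDHB2 had a log2 fold change of -0.11 ± 0.18 (SE) and PCDHGB6 of -0.09 ± 0.22 (SE). PCDHB5, at 7.70 and 15.4 against 10.3 and 11.1 CPM, was measured much less closely, at -0.21 ± 1.01 (SE).

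At passage 4 the dKO progenitors had less RNA of members from all 3 clusters. Of the 25 tested, 0 rose and 9 fell, beside 11.1% of all genes tested that rose and 11.2% that fell. All 9 also passed at an adjusted p below 0.05, as did 22.0% of all genes tested. The median log2 fold change was -0.66 over 9 alpha, -0.79 over 10 beta and -0.27 over 6 gamma genes, against 0.02 over all genes. All 10 tested beta genes had a negative value, as did 8 of 9 alpha and 3 of 6 gamma genes.

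The beta genes held the largest change at passage 4. PCDHB5 had 33.3 and 33.2 CPM in WT-NPC-P4 and 3.23 and 2.66 in dKO-NPC-P4, a log2 fold change of -3.48 ± 0.75 (SE, adjusted p = 0.00596). PCDHB15 had 59.1 and 52.6 CPM in WT-NPC-P4 and 13.1 and 19.8 in dKO-NPC-P4, a log2 fold change of -1.75 ± 0.40 (SE, adjusted p = 0.00542). In both genes every WT sample lay more than 2-fold above every dKO sample. PCDHB4 and PCDHB10, alternate isoforms too, also fell, with log2 fold changes of -1.34 and -1.07. PCDHB2, by contrast, was at 124 and 139 CPM in WT-NPC-P4 and 122 and 134 in dKO-NPC-P4, ranges that overlapped, with a log2 fold change of -0.03 ± 0.13 (SE). As shown above, PCDHB2, PCDHB5 and PCDHB15 carry the beta promoter form, whose part in these values was not tested.

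In the gamma cluster PCDHGB4 fell and PCDHGB6, also a gamma B gene, was not called. PCDHGB4 had 103 and 132 CPM in WT-NPC-P4 and 18.2 and 13.3 in dKO-NPC-P4, a log2 fold change of -2.90 ± 0.38 (SE, adjusted p = 0.000262). PCDHGB6 had 148 and 146 CPM in WT-NPC-P4 and 158 and 160 in dKO-NPC-P4, a log2 fold change of 0.12 ± 0.14 (SE). PCDHGB4 thus made up 27.1% of the gamma counts in WT-NPC-P4 and 4.89% in dKO-NPC-P4, while PCDHGB6 made up 34.0% and 49.5%. PCDHGB7 fell again, from 41.9 and 42.1 CPM to 18.9 and 14.5, a log2 fold change of -1.32 ± 0.22 (SE, adjusted p = 9.84e-05). PCDHGA10, the only gamma A gene tested, had 34.7 and 39.1 CPM in WT-NPC-P4 and 61.8 and 65.5 in dKO-NPC-P4, a log2 fold change of 0.79 that did not pass the 2-fold threshold.

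Of the alpha genes, PCDHAC2 had 9.57 and 9.65 CPM in WT-NPC-P4 and 2.77 and 2.90 in dKO-NPC-P4, a log2 fold change of -1.75 ± 0.33 (SE, adjusted p = 0.000336). PCDHA2 and PCDHA11 also fell, with log2 fold changes of -1.44 and -1.26. PCDHA6, the highest alpha gene per kilobase in both groups, was at 34.7 and 24.4 CPM against 35.3 and 33.1, a log2 fold change of 0.23. PCDHAC2 was the only C-type gene that fell at passage 4. PCDHAC1 had a log2 fold change of -0.66 ± 0.33 (SE) and PCDHGC3 of -0.65 ± 0.16 (SE), both short of 2-fold, and PCDHGC4 of 0.44 ± 0.21 (SE).

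Differentiated cells at day 28 differed between the genotypes in 6 tested members. Of the 25 tested, 0 rose and 6 fell (3 alpha, 0 beta and 3 gamma), while 12.4% of all genes tested rose and 11.7% fell. All 6 passed at an adjusted p below 0.05, as did 24.1% of all genes tested. Without dKO-D28 sample 1 there were 8 falls and without sample 2 there were 5. The median log2 fold change was -0.19 over alpha, -0.41 over beta and -0.90 over gamma genes, against 0.00 over all genes.

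PCDHAC2 had 24.5 and 23.1 CPM in WT-D28 and 6.44 and 4.18 in dKO-D28, a log2 fold change of -2.18 ± 0.25 (SE, adjusted p = 1.83e-06). PCDHA4 had 52.2 and 53.6 CPM in WT-D28 and 21.2 and 13.3 in dKO-D28, a log2 fold change of -1.63 ± 0.18 (SE, adjusted p = 1.46e-06). Both dKO samples lay below both WT samples in these genes. Without dKO-D28 sample 1 the values were -2.48 for PCDHAC2 and -1.97 for PCDHA4, and without sample 2 they were -1.87 and -1.31. PCDHA2 fell as well, from 21.2 and 22.2 CPM to 8.59 and 7.22, with a log2 fold change of -1.46. PCDHA10, at 8.64 and 8.24 CPM in WT-D28 and 14.3 and 15.0 in dKO-D28, had a log2 fold change of 0.80 and did not pass the 2-fold threshold. Among gamma genes, PCDHGB4 had 103 and 108 CPM in WT-D28 and 38.2 and 13.9 in dKO-D28, a log2 fold change of -2.04 ± 0.35 (SE, adjusted p = 0.00102). Its 2 dKO libraries differed by more than 2-fold from each other, and the value was -2.90 without dKO-D28 sample 1 and -1.45 without sample 2. PCDHGB7 fell from 47.2 and 47.9 CPM to 17.4 and 13.1, a log2 fold change of -1.65 ± 0.20 (SE, adjusted p = 4.27e-06). PCDHGC4 had 23.6 and 22.2 CPM in WT-D28 and 11.9 and 9.31 in dKO-D28, a log2 fold change of -1.11 that came under 2-fold without dKO-D28 sample 2 (-0.92) and with a correction for GC content and length (-0.97).

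PCDHGB7 was the single member called in all 3 comparisons of dKO with WT cells. These share no samples but rest on the same WT and dKO lines and on 1 fit, so they are not independent. The difference between the genotype effects of PCDHGB7 at day 28 and at passage 2 was 0.11 ± 0.39 (SE) on the log2 scale, and between passage 4 and passage 2 it was 0.44 ± 0.40 (SE). PCDHA2, PCDHAC2, PCDHGB4 and PCDHGB7 were called at both later stages. The share of all genes called in more than 1 comparison was not counted, so no background stands beside these overlaps. Of the 10 tested beta genes 0 were called at day 28, and 7 had a negative value. No test compared the clusters or the 2 later stages. PCDHB5 had 23.0 and 21.9 CPM in WT-D28 and 16.9 and 2.09 in dKO-D28, a log2 fold change of -1.31 ± 0.61 (SE, adjusted p = 0.106). PCDHB15 had 21.7 and 20.1 CPM against 32.9 and 11.0. In both genes the dKO-D28 libraries were far apart, and in PCDHB15 they lay on either side of the WT samples.

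**Figure D2:**
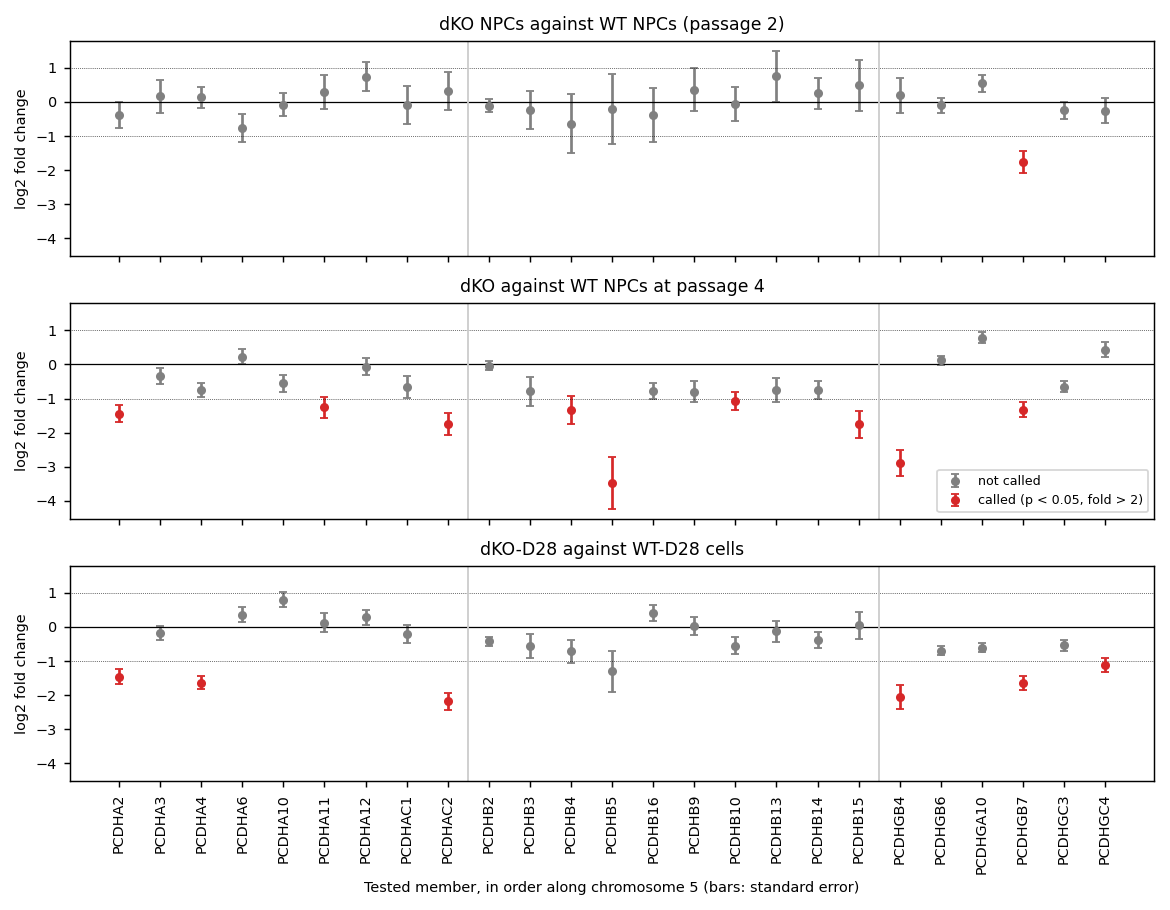
Log2 fold change of dKO against WT (vertical axis) for the 25 tested members in order along chromosome 5, at passage 2, passage 4 and day 28, with bars for the standard error. Red points passed p below 0.05 and a fold change above 2: 1 member at passage 2, 9 at passage 4 and 6 at day 28, all below 0.

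**Figure D3:**
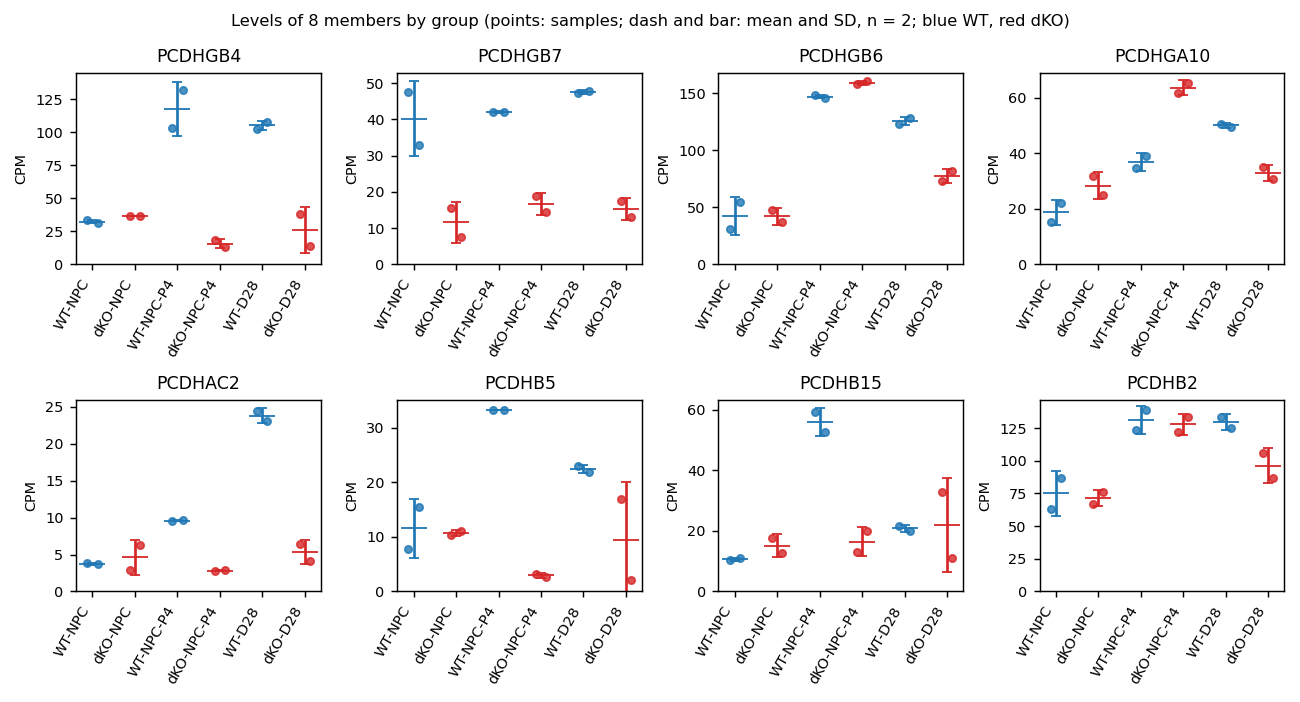
CPM of 8 members in the 6 groups, with a point for each sample and a dash and bar for the mean and SD (n = 2; blue WT, red dKO; vertical axes start at 0, where 1 SD bar of PCDHB5 is cut, and differ between panels). PCDHGB7 lies lower in dKO at every stage, PCDHGB4, PCDHAC2, PCDHB5 and PCDHB15 lie lower in dKO at passage 4, and PCDHB2 and PCDHGB6 lie at like levels in both genotypes there.

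During differentiation of WT cells members of all 3 clusters rose. Between WT-NPC and WT-D28, 12 of 25 rose and 0 fell, beside 12.9% of all genes tested that rose and 11.5% that fell. At an adjusted p below 0.05 there were 11, beside 23.5% of all genes tested in either direction. The risers were 4 alpha, 5 beta and 3 gamma genes. PCDHAC2, a C-type gene, rose from 3.85 and 3.67 CPM to 24.5 and 23.1, a log2 fold change of 2.66 ± 0.38 (SE, adjusted p = 3.70e-05). It was among the tested members only through WT-D28, the group where it was highest, so its comparisons with that group carry this selection. PCDHB16 rose by 1.95, PCDHGB4 by 1.70 and PCDHB13 by 1.68 on the log2 scale, and PCDHB13 lost its call without WT-NPC sample 2. The other C-type genes did not pass. PCDHGC3 was at 21.8 and 24.2 CPM in WT-NPC and 25.6 and 23.7 in WT-D28, PCDHAC1 had a log2 fold change of 0.74 and PCDHGC4 of 0.87.

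In dKO cells fewer members passed over the same 28 days. Between dKO-NPC and dKO-D28, 4 of 25 rose and 0 fell, while 4.01% of all genes tested rose and 3.14% fell. At an adjusted p below 0.05 there were 2, beside 5.0% of all genes tested in either direction. Without dKO-NPC sample 2 a single rise was left. PCDHB16 rose from 0.739 and 2.78 CPM to 12.2 and 12.2, a log2 fold change of 2.74 ± 0.47 (SE, adjusted p = 0.00115). PCDHA3 rose from 7.39 and 4.18 CPM to 15.7 and 13.1, by 1.32 on the log2 scale with an adjusted p of 0.0162, and lost its call without dKO-NPC sample 2. PCDHB4 and PCDHA6 were called with log2 fold changes of 1.39 and 1.02 but had adjusted p-values of 0.195 and 0.0611. PCDHB4 had 1.48 and 2.09 CPM in dKO-NPC and 6.68 and 3.04 in dKO-D28, and PCDHA6 had 10.8 ± 4.51 CPM (SD, n = 2) in dKO-NPC and 17.9 and 25.5 in dKO-D28. The value of PCDHB4 was 0.75 without dKO-D28 sample 1 and that of PCDHA6 0.73 without dKO-D28 sample 2, neither of them called. PCDHAC2 was at 2.95 and 6.26 CPM in dKO-NPC and 6.44 and 4.18 in dKO-D28, ranges that overlapped.

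The difference between these changes was tested as an interaction of genotype and differentiation. It was called in 6 of 25 members, 1 upward and 5 downward, beside 23.2% of all genes tested, a like share. At an adjusted p below 0.05 it was called in 4, all downward, beside 20.2%. It was called in 3 without WT-NPC sample 1. PCDHAC2 had an interaction of -2.49 on the log2 scale (standard error 0.61, adjusted p = 0.00595), PCDHGB4 of -2.24 ± 0.62 (SE, adjusted p = 0.0262), PCDHA4 of -1.76 ± 0.36 (SE, adjusted p = 0.00148) and PCDHGA10 of -1.15 ± 0.29 (SE, adjusted p = 0.00641). PCDHA2 at -1.08 and PCDHA6 at 1.13 passed only before adjustment. PCDHB16, which rose in both genotypes, had an interaction of 0.79 ± 0.84 (SE). The PCDHAC2 call was lost without dKO-NPC sample 2, where the interaction was -1.84, and that of PCDHGA10 without WT-NPC sample 1 or dKO-NPC sample 1, where it was -0.97, and with a correction for GC content and length, where it was -0.98.

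Between passage 2 and passage 4, members of all 3 clusters rose in WT progenitors. From WT-NPC to WT-NPC-P4, 14 of 25 rose and 0 fell, beside 10.3% of all genes tested that rose and 9.49% that fell. At an adjusted p below 0.05 there were 13, beside 18.5% in either direction. Without WT-NPC sample 1, which this comparison shares with the one at day 28, the number was 9. The risers were 5 alpha, 7 beta and 2 gamma genes. PCDHB16 rose from 2.57 and 2.20 CPM to 19.1 and 27.9, a log2 fold change of 3.32 ± 0.45 (SE, adjusted p = 2.99e-05). PCDHB15 rose by 2.37, PCDHB13 by 2.07 and PCDHGB4 by 1.86 on the log2 scale. PCDHGB6 rose from 30.8 and 54.3 CPM to 148 and 146, a log2 fold change of 1.71 ± 0.18 (SE, adjusted p = 2.53e-06).

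In dKO progenitors 5 of 25 rose between passage 2 and passage 4 and 1 fell, beside 4.61% and 5.22% of all genes tested. The 5 rises passed at an adjusted p below 0.05, beside 7.98% in either direction. Without dKO-NPC sample 2, 3 rises and 0 falls were left. PCDHB16 rose to 13.1 and 14.5 CPM (log2 fold change 2.93, SE 0.47, adjusted p = 0.000393) and PCDHGB6 from 47.3 and 36.9 to 158 and 160 CPM (log2 fold change 1.92, SE 0.17, adjusted p = 2.19e-06). PCDHA6, PCDHGA10 and PCDHGC4 rose by 1.66, 1.16 and 1.12, and PCDHGA10 came under 2-fold, at 0.99, with the correction for GC content and length. PCDHGB4 went the other way, from 36.9 and 36.9 CPM to 18.2 and 13.3, a log2 fold change of -1.22 with an adjusted p of 0.108. Its call was lost without either dKO-NPC sample or without dKO-NPC-P4 sample 2. PCDHGB4, whose genotypes differed by 0.19 ± 0.52 (SE) on the log2 scale at passage 2, was thus called upward in WT and downward in dKO progenitors.

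The interaction of genotype and passage was called in 6 of 25 members, all downward, beside 19.3% of all genes tested, and in 2 at an adjusted p below 0.05, beside 15.3%. It was called in 3 members without WT-NPC sample 1 and in 3 without dKO-NPC sample 1. PCDHGB4 had an interaction of -3.09 on the log2 scale (standard error 0.64, adjusted p = 0.00942) and PCDHAC2 of -2.06 ± 0.65 (SE, adjusted p = 0.0306), the latter lost without dKO-NPC sample 2 at -1.41. PCDHB5 at -3.27 (adjusted p of 0.116), PCDHB15 at -2.24 and PCDHA11 at -1.55 passed before adjustment only, and the PCDHB5 call was lost when any of 10 of the 12 samples was left out. PCDHB16 had an interaction of -0.40 ± 0.85 (SE) and PCDHGB6 of 0.21 ± 0.26 (SE).

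**Figure D4:**
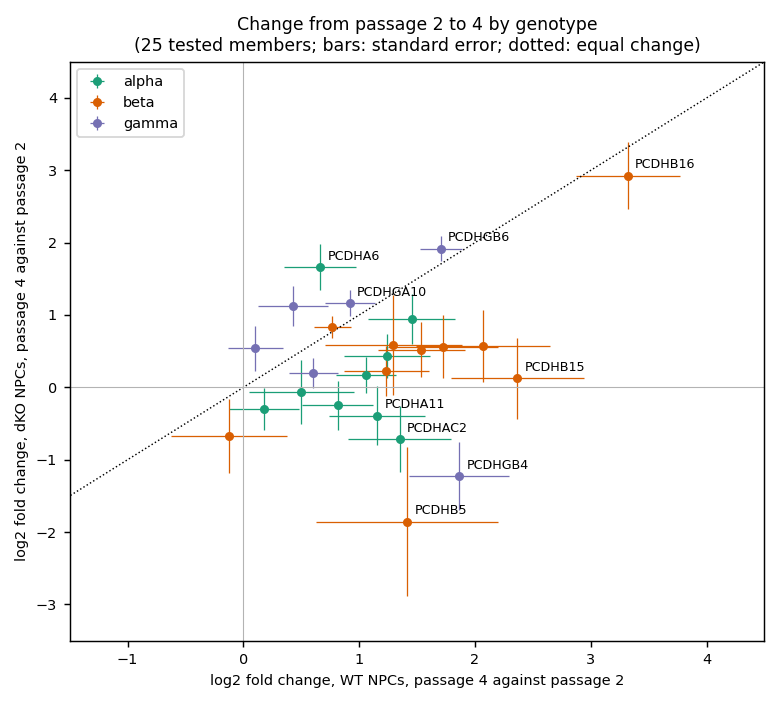
Log2 fold change from passage 2 to passage 4 in WT (horizontal axis) and dKO NPCs (vertical axis) for the 25 tested members, with bars for the standard error and a dotted line of equal change. PCDHB16 and PCDHGB6 lie near the line, most members lie below it, and PCDHGB4, PCDHAC2 and PCDHB5 are above 0 in WT and below 0 in dKO.

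Members below the count minimum were tested with every gene that had at least 1 count in any sample, 34982 genes in all, of which the 53 members were part. At passage 4, 20 of the 53 then fell in dKO cells and 0 rose, against 6.76% and 7.91% of all these genes. At day 28 9 fell and 2 rose, against 8.35% and 8.91%. Between WT-NPC and WT-NPC-P4 24 rose and 0 fell, against 6.04% and 6.77%, and between WT-NPC and WT-D28 18 rose and 0 fell, against 8.21% and 7.82%. In dKO cells 12 rose and 0 fell by day 28, against 3.81% and 3.86%, and 8 rose and 1 fell by passage 4, against 3.72% and 4.68%. At passage 2, 0 rose and 2 fell in dKO cells, PCDHGB7 and PCDHGA6, against 1.88% and 1.49%. PCDHGA6 had 2 and 1 counts in WT-NPC and 0 in both dKO-NPC samples, all under the floor of 3 counts, so no fold is given for it. The additional members were read a few times in each library. PCDHB8 had 9 and 18 counts in WT-NPC-P4 and 0 in both dKO-NPC-P4 samples, at least 5.32-fold lower at a floor of 3 counts per library. PCDHGA8 had 16 and 10 counts in WT-NPC-P4 against 3 and 0, and PCDHB6 had 14 and 16 against 3 and 6. The 2 members higher in dKO-D28 were PCDHA8, with 26 and 9 counts against 9 and 12 in WT-D28, and PCDHGB5, with 27 and 12 against 15 and 19. Scaled to depth, PCDHA8 had 6.20 and 1.71 CPM in dKO-D28 against 1.07 and 1.19 in WT-D28, and PCDHGB5 had 6.44 and 2.28 against 1.78 and 1.89. The groups did not overlap in CPM, and sample 1 was the higher in both genes. PCDHGC5, the C-type gene below the minimum, had 42 and 40 counts in WT-D28 and 8 and 9 in dKO-D28, and 1 to 14 counts in each NPC library.

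Genes that act with the clustered protocadherins were given by lists. Of the 12 non-clustered protocadherins, single genes elsewhere in the genome, 10 were tested. The counts of these lists stand beside the shares of all genes tested that rose and fell in dKO cells, 2.59% and 1.83% at passage 2, 11.1% and 11.2% at passage 4 and 12.4% and 11.7% at day 28. In dKO cells 1 rose and 0 fell at passage 2 (PCDH10, 1.56 on the log2 scale, adjusted p of 0.0767), 2 rose and 2 fell at passage 4, and 3 rose and 4 fell at day 28. PCDH7 rose at passage 4 and day 28, by 2.14 and 2.43, and PCDH15 and PCDH18 rose at 1 stage each, by 1.14 (adjusted p of 0.0727) and 1.47. PCDH8 and PCDH9 fell by 2.09 and 1.43 at passage 4, and PCDH17 and PCDH10 fell by 3.59 and 2.84 at day 28. The dKO-D28 libraries had 81.1 and 151 CPM of PCDH7, 19.8 and 7.60 of PCDH17, 23.8 and 9.88 of PCDH10 and 41.5 and 53.4 of PCDH18, and in these 4 genes both lay on the same side of the WT-D28 samples. Of 26 chromatin regulators known to act on the clusters 25 were tested, and EHMT2 was listed at 0 in all 12 samples. None passed at passage 2, 1 rose at passage 4 and 2 at day 28. DNMT3B, a de novo DNA methyltransferase known to methylate these promoters, was the riser at both stages, from 17.5 and 17.0 to 36.2 and 36.2 CPM at passage 4 (log2 fold change 1.08, or 1.00 and not called with the correction for GC content and length) and from 18.0 and 16.2 to 65.8 and 58.0 CPM at day 28 (1.86), and TET1, which oxidises methylated cytosine, rose by 1.10 at day 28 (80.4 and 78.7 CPM in dKO-D28). CTCF, named here outside the selection rule because it binds the promoter element, had log2 fold changes of -0.10, -0.24 and 0.27 at passage 2, passage 4 and day 28 (standard errors 0.14, 0.12 and 0.11). Of 20 signalling and processing partners 20 were tested, and none passed at passage 2. At passage 4, 0 rose and 2 fell, the kinases PRKCA (-3.56) and FYN (-1.45), and at day 28 CYFIP1, a subunit of the WAVE complex, rose by 1.15 (89.9 and 105 CPM in dKO-D28) and PRKCA fell by 3.03 (10.3 and 9.12 CPM).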

How the data were processed

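TRIzol RNA went into TruSeq libraries, and the authors aligned the reads to hg38 with HISAT2 2.0.4, used SAMtools 1.3.1 and counted genes with htseq-count (HTSeq 0.6.0). The deposited values are these counts for each Ensembl gene, neither normalized nor filtered. The counting annotation, mode and strand setting are not given in the sources used here. GENCODE v44 gave symbols and coordinates for 57532 of 58302 rows (98.7%), all members included.

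In R 4.3.3, counts were scaled by TMM and tested with edgeR 4.0.16 (robust quasi-likelihood test) in 1 fit of 6 group means, for 13454 genes averaging 20 or more counts across all libraries. A call took p below 0.05 and a change of more than 2-fold, both from the study's methods, with Benjamini-Hochberg adjusted p-values beside. Each SE was taken as the log2 fold change over the root of F. Levels of different genes were compared per kilobase of exon not shared with a gene on the same strand, because genes with own bases only when strand is considered (511) had counts in 87.7% of cases. Groups come from the labels. The members and gene lists were chosen with earlier results of these data known. The genes named are the C-type genes, the 4 largest rises and falls past the call rule in each comparison, the highest member per kilobase, KDM6A and KDM6B, and the 2 largest rises and falls of 3 related lists in comparisons of dKO with WT. Members named beyond this rule were chosen after their values were seen.

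The alternatives were DESeq2 1.42.0, other filters on low counts, adjusted calls, GC and length offsets (pseudocount 0.1, 10 bins), a replicate block, only the samples compared, and leaving out each sample.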

Additional observations from a re-analysis of the deposited data

Results flagged for a closer look

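In 4 of 25 members the genotype effect at day 28 differed from that at passage 2 by a test of the difference itself, with an adjusted p below 0.05 by edgeR. On the log2 scale the difference was -2.49 for PCDHAC2, -2.24 for PCDHGB4, -1.76 for PCDHA4 and -1.15 for PCDHGA10. Of all genes tested, 20.2% were called in that way, a larger share than of the members. In 2 of 25 members the genotype effect at passage 4 differed from that at passage 2, by -3.09 for PCDHGB4 and -2.06 for PCDHAC2, beside 15.3% of all genes tested, again a larger share. All of these differences share the WT-NPC and dKO-NPC samples, the shallowest libraries, in which PCDHAC2 had 3 and 5 counts in WT-NPC and 4 and 9 in dKO-NPC. Neuron markers differed between the genotypes in the same direction at both later stages, and their part in these values was not tested.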

How the results depend on the processing

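Of the counts and sums by comparison, 286 recomputed values kept their size or side, 23 moved and 3 reversed. Of the values of named genes 1227 stayed on their side of the threshold, 65 lost a call and 8 reversed. With every gene that had at least 1 count, the members called were 2 in dKO against WT NPCs, 20 at passage 4, 11 at day 28, 12 from dKO-NPC to dKO-D28 and 24 from WT-NPC to WT-NPC-P4, and 53 rather than 25 members were tested. That filter moved the median log2 change of all genes between WT-NPC and WT-D28 to 0.16. With at least 10 counts in every sample, which left 9 members, they were 2 for dKO against WT at passage 4, 3 at day 28, 4 from WT-NPC to WT-D28, 1 from dKO-NPC to dKO-D28, 3 from WT-NPC to WT-NPC-P4 and 1 for the interaction with passage. At an adjusted p below 0.05 they were 2 from dKO-NPC to dKO-D28 and 2 for the interaction with passage.

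Leaving out each sample in turn, the members called ranged from 1 to 2 in dKO against WT NPCs, 8 to 10 at passage 4, 5 to 8 at day 28, 9 to 13 from WT-NPC to WT-D28, 1 to 5 from dKO-NPC to dKO-D28, 9 to 15 from WT-NPC to WT-NPC-P4, 3 to 9 from dKO-NPC to dKO-NPC-P4, 3 to 8 for the interaction with differentiation and 3 to 7 for that with passage. At passage 2 the log2 ratio of dKO to WT sums ran from -0.21 to 0.0064 for the alpha cluster and from -0.20 to 0.18 for the beta cluster, and the beta ratio was 0.026 over the tested members alone. Log2 fold changes of dKO against WT NPCs that turned direction ran from -0.60 to 0.29 for PCDHAC1, -0.34 to 0.74 for PCDHAC2, -0.58 to 0.21 for PCDHGC4 and -0.23 to 0.0033 for KDM6B, and KDM6A at day 28 ran from -0.51 to 0.35. The cause was not tested. The highest member per kilobase was the same in 0 of 6 groups for alpha with bases shared on either strand left out, an alternative chosen after seeing the data that leaves PCDHA1 7 bases. It was the same in 3 of 6 for gamma over all exons.

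The sample numbers in the labels are shared between groups, and the labels do not say whether they mark a common culture or day. Deviations of equal numbers correlated by -0.0549 to 0.172 over 15 pairs of groups, highest between WT-NPC-P4 and dKO-NPC-P4. Samples of equal number were not treated as pairs in the main fit. With a replicate block the members called were 1, 9 and 6 in dKO against WT at passage 2, passage 4 and day 28, 12, 4, 14 and 6 in the 4 comparisons within a genotype, and 6 and 7 for the interactions. In WT-NPC sample 1, the shallowest library, 3 counts correspond to 3.85 CPM, and members near or below this level at passage 2 rest on a few reads.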
